A study of Homo sapiens with 6 samples.

Results

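The genes described here encode the chromatin regulators of the polycomb, COMPASS and DNA methylation systems, with lysine demethylases, deacetylases, acetyltransferases and bromodomain readers. They are 54 genes chosen by symbol from what their products are known to do, though with earlier results of these data known. Of these, 52 were matched to a row of a table of 39771 gene rows. KMT2B and UHRF1 were not matched by identifier and are not analysed here. The cells were MOLM-13, an established human acute myeloid leukaemia line that carries the MLL-AF9 translocation, grown in culture. The knockdown cells carried a short hairpin RNA directed at LAMP5 and delivered by lentivirus (shLAMP5, 4 libraries), and the control cells a non-targeting one (shNT, 2 libraries). Both groups had gone through puromycin selection, and all 6 libraries came from 1 cell line. LAMP5 encodes a lysosome-associated membrane protein. The labels give neither the hairpin sequence nor the harvest time of a library, though they speak of more than 1 time, so hairpins or times may be mixed within shLAMP5. Since the labels name no separate cultures, the spread behind each p-value below is that of 6 libraries and could be technical.

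Polycomb proteins keep genes silent. Polycomb repressive complex 2 (PRC2) methylates histone H3 through its catalytic subunit, EZH2 or EZH1, and polycomb repressive complex 1 (PRC1) adds ubiquitin to histone H2A, which the PR-DUB enzymes remove. COMPASS complexes place the opposing methyl mark on histone H3 at active promoters and enhancers, and the MLL gene (KMT2A) that is broken in MLL-AF9 leukaemia normally encodes one of their enzymes. DNA methyltransferases write methyl groups on cytosine, TET enzymes oxidise them, deacetylases and acetyltransferases remove and add acetyl groups on histones, and BET proteins bind those acetyl groups. Several of these genes, among them TET2, DNMT3A, IDH1, IDH2 and ASXL1, are often mutated in acute myeloid leukaemia, and EZH2, KDM1A and the BET proteins are drug targets in it.

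The hairpin's target followed the labels. LAMP5 measured 80.6, 65.6, 68.8 and 86.7 TPM in shLAMP5 libraries 1 to 4, against 170 and 282 TPM in shNT libraries 1 and 2 (TPM is transcript abundance per length, scaled to a common total). All shLAMP5 values lay below both shNT values. The log2 fold change, here and below shLAMP5 minus shNT on log2(TPM + 1), was -1.54, and an exact permutation test (two-sided) gave p = 0.0667, which is the smallest value 6 libraries can give. The read depth of the libraries is unknown. Library shLAMP5 2 correlated across genes at 0.928 to 0.942 with the other shLAMP5 libraries (Spearman), below its 0.957 with shNT 1. With shNT 2 it had 0.924. Other libraries also correlated more with a control than with 1 shLAMP5 library: shLAMP5 1 had 0.979 with shNT 2 and 0.956 with shLAMP5 3, and shLAMP5 4 had 0.973 and 0.965. Only shLAMP5 2 correlated more with a control than with every other shLAMP5 library. The typical gene of shLAMP5 2 was low as well, with a median scaling factor of 0.839, whereas the factors of the other libraries ran between 0.998 and 1.06. It held the lowest of the 4 shLAMP5 values for 35 of the 51 tested regulators, and for 14 once each library was divided by its factor. The results are therefore given with and without it where it matters, and with shNT 1 left out beside it.

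The identity genes of the line were present, since all 10 listed markers, such as PTPRC, CD33 and FLT3, reached 1 TPM in every library. No erythroid or megakaryocyte marker reached 1 TPM in any library. Of the T cell markers only CD3D passed 1 TPM, at up to 8.41 TPM, and of the B cell markers only CD79A, at up to 1.25 TPM. Of 7 markers of packaging cells and fibroblasts KRT18, KRT8 and COL1A1 passed it, at up to 23.6, 13.9 and 5.91 TPM. The summed level of these 7 markers was 26.8 to 38.2 TPM in shLAMP5 libraries and 29.2 to 31.5 TPM in shNT libraries, and their part in the results was not tested.

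Of the 52 regulators, 51 reached 1 TPM in at least 2 libraries and were tested. TET1, an oxidase of methylcytosine, did not: it measured 0.154, 0.0485, 0.0755 and 0.145 TPM in shLAMP5 libraries 1 to 4 and 0.175 and 0.187 TPM in shNT libraries. Its groups did not overlap, at levels too low to test. The deacetylases HDAC2 and HDAC1 and the NADP-dependent isocitrate dehydrogenase IDH2 had the highest shNT means of the 52, with shLAMP5 means of 136, 134 and 85.5 TPM and shNT means of 181, 153 and 125 TPM. BMI1, the RING-finger partner of the PRC1 ubiquitin ligase, had the highest level of the polycomb genes among the 52, at 111 ± 16.3 TPM in shLAMP5 libraries (SD, n = 4) and 110 ± 13.0 TPM in shNT libraries (SD, n = 2). At the low end of the tested genes, the PRC1 subunits CBX7, RING1 and CBX2 had shLAMP5 means of 2.10, 1.34 and 1.12 TPM and shNT means of 1.44, 1.42 and 2.42 TPM.

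**Figure D1:**
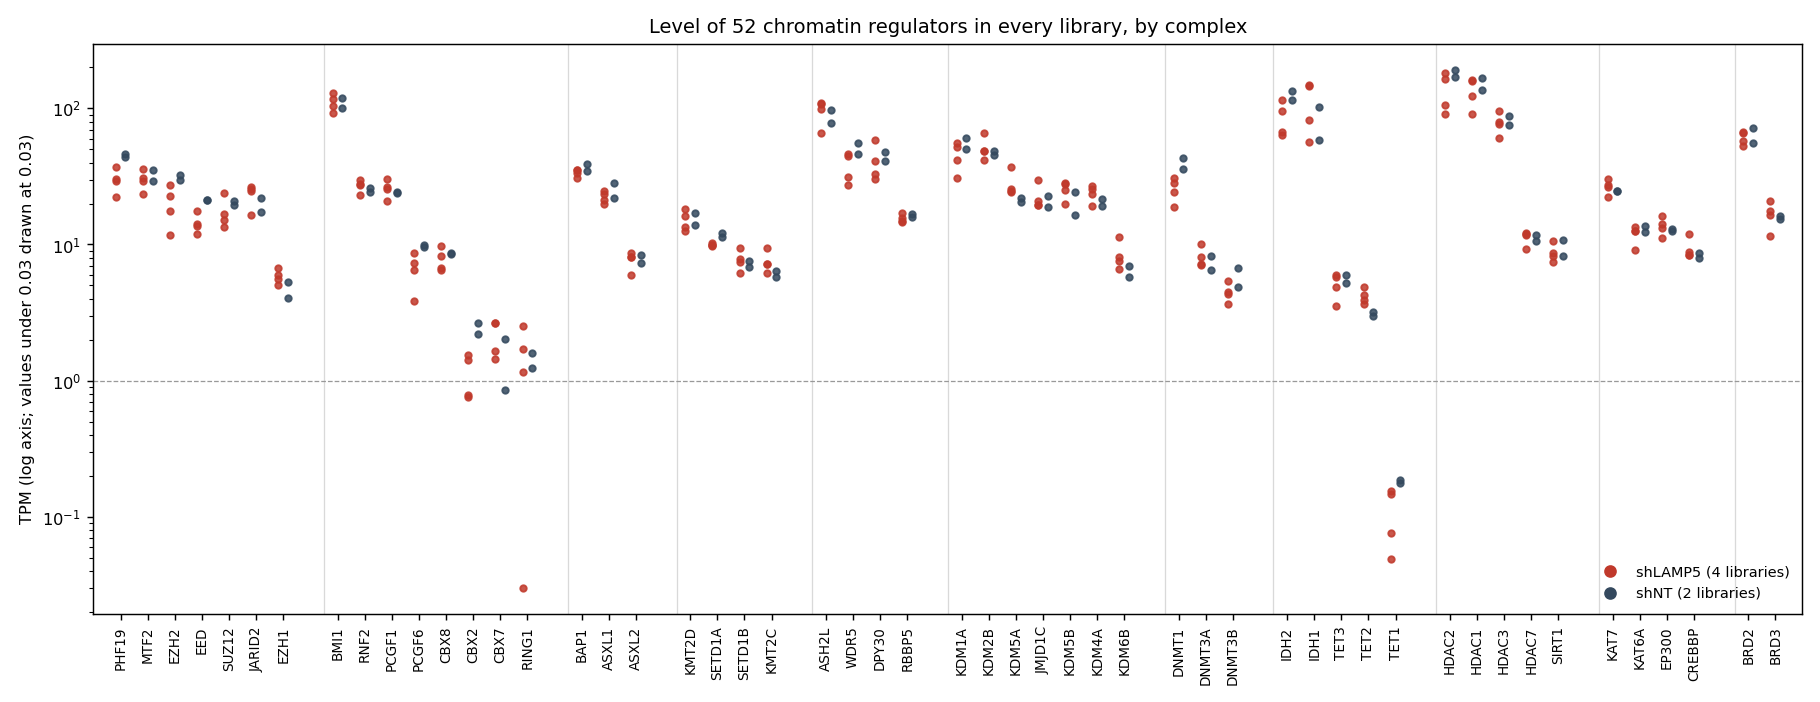
Level of each of the 52 matched regulators in every library, in TPM on a log axis, grouped by complex, with shLAMP5 libraries (4) in red left of shNT libraries (2) in dark blue and a dashed line at 1 TPM. TET1 lies below 1 TPM throughout, and RING1 in shLAMP5 2 is drawn at the floor of the axis.

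No regulator passed the test, and neither did LAMP5, the hairpin's target, at an adjusted p of 0.252 in limma. On simulated data the fit called 21% of genes changed by 1 on the log2 scale, a change larger than that of any regulator. The limma fit across 13072 genes with Benjamini-Hochberg adjustment called 0 genes at an adjusted p of 0.05, which is 0% of the genes tested, and the smallest adjusted p among the regulators was 0.524. At an unadjusted p under 0.05, 4 of the 51 had lower values in shLAMP5 libraries, against 5.25% of all genes tested, and they were CBX2, EED, PHF19 and DNMT1. In the other direction 0 of the 51 passed that level, against 3.72% of all genes. The 4 shLAMP5 values were all below both shNT values for 8 regulators, EZH2, EED, PHF19, CBX2, PCGF6, SETD1A, WDR5 and DNMT1, which is 15.7% of them beside 13.5% of all genes tested. They were all above both for 2, KDM5A and TET2, beside 8.25% of all genes. The downward share is near that of the whole table, and the 2 of 51 upward are a smaller share than its 8.25%. Neither difference from the whole table was tested. The counts also rest on single libraries. The 4 lower at an unadjusted p under 0.05 became 0 without either shNT library and 2 without shLAMP5 3 or shLAMP5 4. The 8 separated downward became 13 without shLAMP5 1, and the 2 separated upward became 12 without shLAMP5 2. Fewer libraries have to be apart in those settings, and the share of all genes was not taken in them. With each library divided by its scaling factor, the groups were separated downward for 7 regulators, beside 13.7% of all genes, and upward for 8, beside 12.0%. The 7 were EED, PHF19, CBX2, PCGF6, WDR5, DNMT1 and IDH2. The 8 were KDM5A and TET2 again, with EZH1, RNF2, KMT2C, KDM4A, KDM5B and KAT7. EZH2 and SETD1A overlapped after scaling. Over all 51 the median log2 fold change was -0.063, with a range of -0.71 to 0.37, and 28 were below 0. Over all genes tested the median was -0.006, and 6633 of 13072 (50.7%) were below 0.

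**Figure D2:**
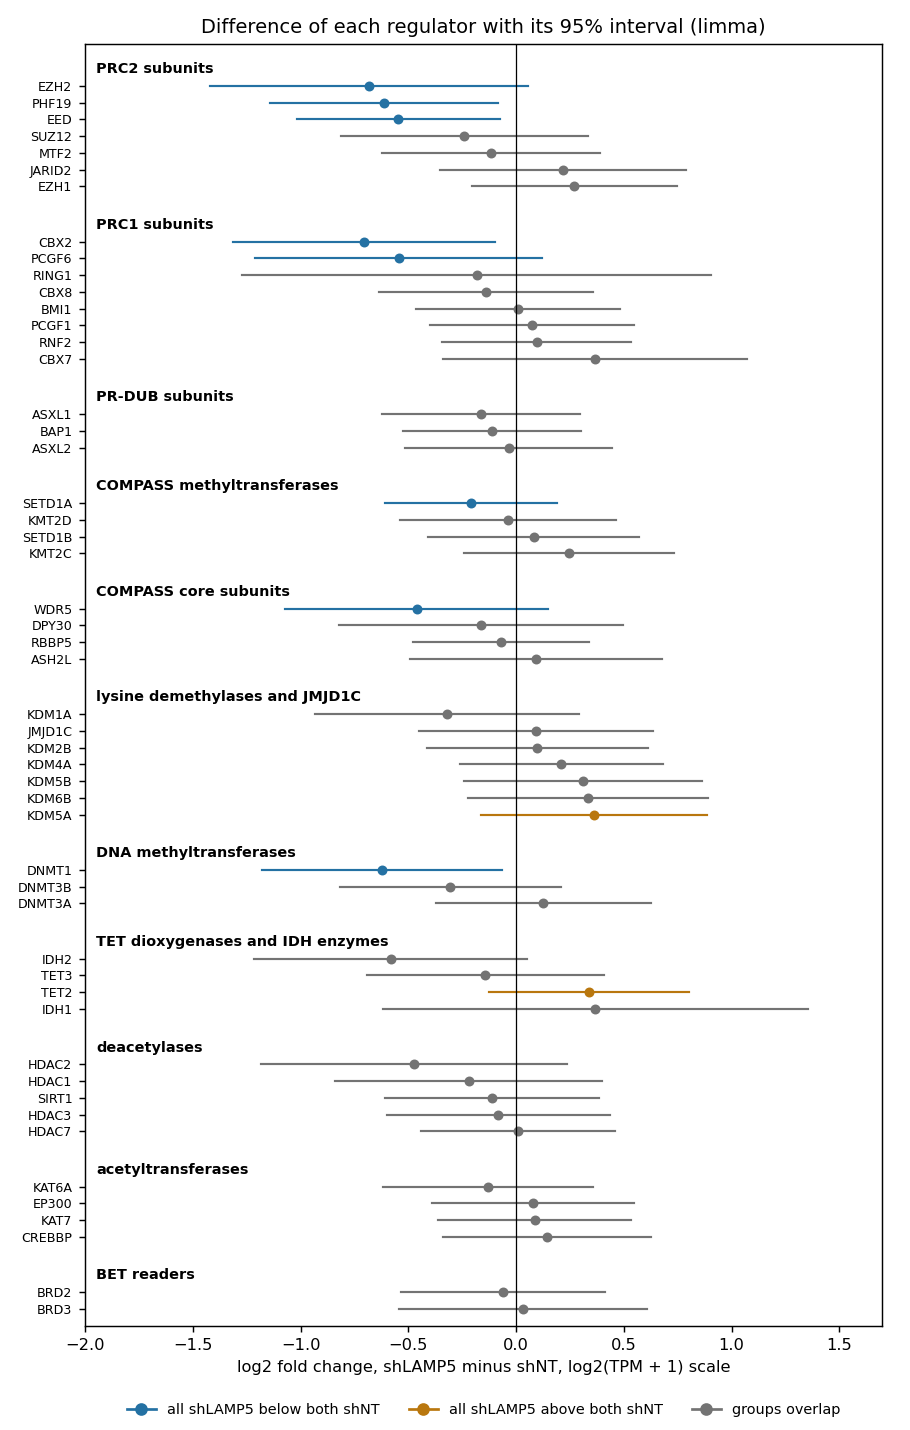
Log2 fold change of the 51 tested regulators (shLAMP5 minus shNT, log2(TPM + 1) scale) with its 95% interval from limma, by complex. Blue marks genes whose 4 shLAMP5 libraries all lie below both shNT libraries, orange those all above, and grey those that overlap. The intervals of CBX2, EED, PHF19 and DNMT1 end below 0 before adjustment, and every other interval includes 0.

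The 8 regulators with separated, lower shLAMP5 values (15.7%, beside 13.5% of all genes tested) included 3 PRC2 subunits and the maintenance DNA methyltransferase. After median scaling 2 PRC2 subunits were separated downward. The promoters of EZH2, PHF19, EED and DNMT1 are printed to show where E2F letters and CCAAT boxes lie. Those of the other separated, lower regulators are not printed. Any part of E2F in the levels of these genes was not tested. The letters searched were TTTCCCGC, TTTGGCGC, TTTCGCGC and TTTGCCGC for E2F and CCAAT for the CCAAT box, each on both strands, in RefSeq promoters of build GRCh38.p14. Each window runs from 170 bases before the annotated start to 20 bases from it, 5′ to 3′ on the gene's strand, and capitals mark the E2F letters and CCAAT boxes. For EZH2 (minus strand, the first of 2 starts) the window is chr7:148884272-148884461, for PHF19 (minus strand, the second of 2 starts) chr9:120877169-120877358, for EED (plus strand) chr11:86244583-86244772, and for DNMT1 (minus strand) chr19:10194934-10195123.
EZH2: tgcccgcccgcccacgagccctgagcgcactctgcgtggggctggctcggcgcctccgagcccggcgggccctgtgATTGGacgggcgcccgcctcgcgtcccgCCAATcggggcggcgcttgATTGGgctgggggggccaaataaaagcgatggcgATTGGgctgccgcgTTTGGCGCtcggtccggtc
PHF19: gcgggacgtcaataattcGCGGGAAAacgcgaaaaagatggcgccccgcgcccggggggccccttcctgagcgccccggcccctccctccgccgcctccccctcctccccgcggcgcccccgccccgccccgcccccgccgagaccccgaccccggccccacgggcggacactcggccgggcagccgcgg
EED: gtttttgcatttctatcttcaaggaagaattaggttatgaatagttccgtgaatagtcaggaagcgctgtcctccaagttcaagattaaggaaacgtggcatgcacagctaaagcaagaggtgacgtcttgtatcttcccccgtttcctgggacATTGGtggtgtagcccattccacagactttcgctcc
DNMT1: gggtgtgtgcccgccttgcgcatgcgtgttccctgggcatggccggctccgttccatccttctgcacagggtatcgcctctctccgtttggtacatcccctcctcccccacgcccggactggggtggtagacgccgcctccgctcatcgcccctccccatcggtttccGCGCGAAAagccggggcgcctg

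In EZH2 the letters TTTGGCGC began at base 2 of the transcript, downstream of 4 CCAAT boxes, and no E2F match in these windows overlapped a CCAAT box. PHF19 held GCGGGAAA from base -152 and DNMT1 held GCGCGAAA from base -2, counted from the start. EZH2 and PHF19 have 2 starts each, and the choice of the printed start follows no stated rule. In the counts below PHF19 has a CCAAT box, which its printed window does not show. The EED window held 1 CCAAT box and no E2F letters, and its GC content was 45.8%, against 68.4% to 80.5% in the other windows. Over the full windows of the RefSeq table, 250 bases before to 50 after the start, E2F letters occurred for 3 of the 7 separated, lower regulators found there and for 4 of the 37 other tested regulators found, which were EZH1, JMJD1C, MTF2 and SUZ12. CBX2 was one of the 8 and was not in the table. The 3 were EZH2, PHF19 and DNMT1, while EED, WDR5, PCGF6 and SETD1A held no E2F letters. E2F letters occurred in 3.31% of all 35116 promoters and for 3.99% of the 27305 genes. CCAAT boxes were common, for 4 of the 7 and 10 of the 37 regulators, beside 39.7% of the genes. The letters CCGGAAGT of an ETS site and TATAAA of a TATA box occurred for 0 of the 7, beside 4.95% and 14% of the genes. TTTGAA, the CHR element, occurred for 1 of the 7, beside 18.2% of the genes. The 7 were picked by their values in these same libraries, and EZH2 among them overlapped after median scaling. The motifs were chosen with earlier results of these data known, so the counts are no test of enrichment. These matches describe the printed DNA and say nothing of which factors bound it in the cells.

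Within PRC2 the 2 catalytic subunits lay on opposite sides of 0. EZH2 (ENSG00000106462), the catalytic subunit of dividing cells, measured 22.8, 27.6, 11.7 and 17.6 TPM in shLAMP5 libraries 1 to 4, against 32.6 and 29.8 TPM in shNT libraries. The groups did not overlap, with shLAMP5 3 lowest and shLAMP5 2 close to the controls. The means were 19.9 ± 6.82 TPM in shLAMP5 (SD, n = 4) and 31.2 ± 1.99 TPM in shNT libraries (SD, n = 2). On the log2 scale shLAMP5 minus shNT came to -0.68 (SE 0.32), within a 95% interval of -1.42 to 0.055 and at an adjusted p of 0.577 in limma. It was -0.79 without shNT 1 and shLAMP5 2, and with median scaling the shLAMP5 2 value reached 32.9 scaled TPM, above the 32.6 and 28.7 scaled TPM of the shNT libraries. EZH1, the alternative catalytic subunit, averaged 5.83 ± 0.683 TPM in shLAMP5 libraries (SD, n = 4) and 4.68 ± 0.906 TPM in shNT libraries (SD, n = 2), with overlapping values and a difference of 0.27 on the log2 scale (adjusted p 0.719, limma).

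The ratio of EZH2 to EZH1 can be read within a library, where scaling cancels. It was 4.06, 5.45, 1.97 and 2.63 in shLAMP5 libraries 1 to 4, against 8.06 and 5.59 in shNT libraries 1 and 2. Every shLAMP5 ratio lay below both shNT ratios, though shLAMP5 2 and shNT 2 nearly touched. The mean log2 ratio differed by -1.04 (shLAMP5 minus shNT), and an exact permutation test (two-sided) gave p = 0.133, where 0.0667 is the smallest value possible. Leaving out 1 library at a time moved the difference between -1.30 and -0.77.

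**Figure D3:**
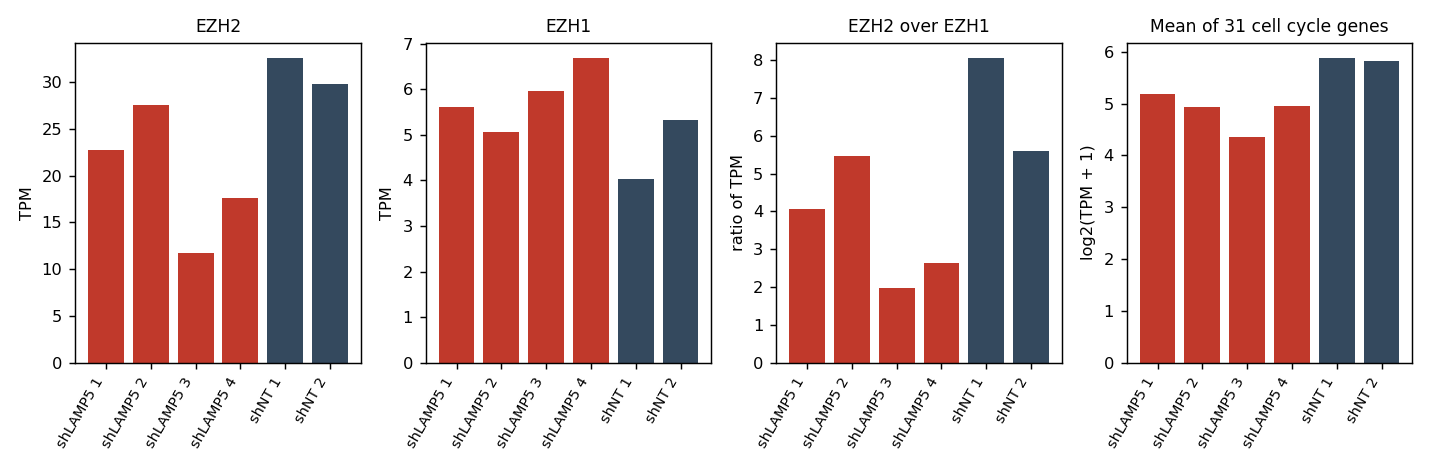
Bars give, for each library, the EZH2 level in TPM, the EZH1 level in TPM, the ratio of EZH2 to EZH1, and the mean of 31 cell cycle genes on log2(TPM + 1), with shLAMP5 libraries in red left of shNT libraries in dark blue. The ratio is lowest in shLAMP5 3, at 1.97, where the cell cycle mean is also lowest, at 4.35. Among the other shLAMP5 libraries the orders differ: the ratio is highest in shLAMP5 2, at 5.45, and the cell cycle mean in shLAMP5 1, at 5.20.

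EED (ENSG00000074266), a subunit that binds the methyl mark PRC2 makes, measured 17.6, 12.0, 14.2 and 13.6 TPM in shLAMP5 libraries 1 to 4, against 21.4 and 21.1 TPM in shNT libraries. Both shNT values were above every shLAMP5 value, also after median scaling. The difference was -0.55 on the log2 scale (SE 0.20, 95% interval -1.02 to -0.076). Its p in limma was 0.0281 unadjusted, and the Benjamini-Hochberg adjusted p was 0.524. PHF19 (ENSG00000119403), an accessory subunit that guides PRC2 to chromatin, measured 36.8, 29.4, 22.3 and 30.2 TPM in shLAMP5 libraries and 46.2 and 44.2 TPM in shNT libraries. Its groups were also apart, at a log2 fold change of -0.61 (SE 0.23, adjusted p 0.524 in limma), and leaving out any 1 library kept it between -0.72 and -0.49. SUZ12, the scaffold of the complex, averaged 17.3 ± 4.58 TPM in shLAMP5 and 20.1 ± 0.800 TPM in shNT libraries (SD, n = 4 and 2). JARID2, a cofactor that aids PRC2 recruitment, averaged 23.3 ± 4.64 TPM in shLAMP5 and 19.7 ± 3.35 TPM in shNT libraries (SD, n = 4 and 2). Both overlapped, as did the accessory subunit MTF2, with means of 29.9 TPM in shLAMP5 and 32.3 TPM in shNT libraries. Over the 7 PRC2 subunits 5 log2 fold changes were below 0, and their median was -0.24, or -0.40 to -0.13 with 1 library left out in turn.

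In PRC1 4 of 8 subunits had log2 fold changes below 0, with a median of -0.064. CBX2 (ENSG00000173894), a chromodomain reader that helps compact chromatin, measured 1.54, 0.751, 0.784 and 1.41 TPM in shLAMP5 libraries 1 to 4, against 2.19 and 2.64 TPM in shNT libraries. No value was shared between the groups, and the log2 fold change of -0.71 (SE 0.26, 95% interval -1.31 to -0.10) was the lowest among the regulators. In limma its Benjamini-Hochberg adjusted p was 0.524, and 0.0278 unadjusted. At these low levels the log2(TPM + 1) scale understates the difference: the shLAMP5 mean was 46.3% of the shNT mean. PCGF6 (ENSG00000156374), the defining subunit of a variant PRC1 that silences germline genes, measured 8.70, 3.83, 6.52 and 7.32 TPM in shLAMP5 libraries and 9.54 and 9.94 TPM in shNT libraries. Its groups did not overlap, with shLAMP5 2 lowest, and the log2 fold change was -0.54 (limma adjusted p 0.606), or -0.37 without shNT 1 and shLAMP5 2.

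CBX7, another chromodomain reader of the methyl mark, measured 2.65, 1.44, 1.65 and 2.66 TPM in shLAMP5 libraries 1 to 4, against 0.845 and 2.04 TPM in shNT libraries, and the groups overlapped. Its log2 fold change of 0.37 ran between 0.0061 and 0.72 when 1 library was left out, the lowest without shNT 1. RING1, a ubiquitin ligase subunit, was listed at 1.54e-08 TPM in shLAMP5 2 and between 1.15 and 2.50 TPM in the other libraries. It lies in the major histocompatibility region, for which annotations hold alternate copies, so its values are uncertain. RNF2, the other ligase subunit, had means of 27.0 TPM in shLAMP5 and 25.1 TPM in shNT libraries, with overlapping values. The chromodomain protein CBX8 averaged 7.79 TPM in shLAMP5 and 8.57 TPM in shNT libraries, and PCGF1, of a variant PRC1, 25.7 TPM in shLAMP5 and 24.2 TPM in shNT libraries. Both overlapped. The 3 PR-DUB genes, the deubiquitinase BAP1 and its partners ASXL1 and ASXL2, overlapped between the groups. ASXL1 measured 24.5, 23.4, 21.2 and 19.7 TPM in shLAMP5 libraries 1 to 4 and 21.9 and 28.2 TPM in shNT libraries. BAP1 measured 35.5, 31.0, 33.8 and 35.4 TPM in shLAMP5 libraries and 34.5 and 39.0 TPM in shNT libraries. ASXL2 measured 8.12, 5.98, 8.07 and 8.63 TPM in shLAMP5 libraries and 8.39 and 7.33 TPM in shNT libraries. The log2 fold changes of these 3 ran from -0.16 to -0.034, and those of ASXL1 and ASXL2 changed sign when 1 library was left out.

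In the COMPASS family the enzymes lay near 0, with a median of 0.022 over 4 genes that ran from -0.070 to 0.12 with 1 library left out in turn. SETD1A (ENSG00000099381), the catalytic subunit of one COMPASS complex, measured 9.90, 10.3, 9.75 and 9.99 TPM in shLAMP5 libraries 1 to 4, against 11.3 and 12.2 TPM in shNT libraries. These were the tightest shLAMP5 values of the separated genes, 9.99 ± 0.241 TPM (SD, n = 4), beside 11.7 ± 0.611 TPM in shNT libraries (SD, n = 2). The log2 fold change was -0.21 (limma adjusted p 0.745), and the groups overlapped after median scaling, where shLAMP5 2 reached 12.3 scaled TPM and shNT 1 11.3. KMT2C, an enhancer methyltransferase, measured 7.20, 6.18, 9.37 and 7.22 TPM in shLAMP5 libraries and 6.39 and 5.81 TPM in shNT libraries. Those groups overlapped, and since parts of KMT2C are copied elsewhere in the genome its level is uncertain. SETD1B measured 7.49, 6.12, 9.45 and 7.83 TPM in shLAMP5 libraries and 7.51 and 6.84 TPM in shNT libraries. KMT2D, the partner enzyme of enhancers, averaged 15.1 TPM in shLAMP5 and 15.5 TPM in shNT libraries.

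The core subunits shared by all COMPASS complexes had a median of -0.12. WDR5 (ENSG00000196363), the subunit that binds the MLL-family enzymes, measured 45.0, 27.2, 31.6 and 46.4 TPM in shLAMP5 libraries 1 to 4, against 46.5 and 55.5 TPM in shNT libraries. The groups were apart, but shLAMP5 4 and shNT 1 differed by far less than the libraries within either group. Its log2 fold change was -0.46 (SE 0.26, limma adjusted p 0.635). DPY30, which stimulates the methyltransferase, measured 59.0, 30.1, 33.0 and 40.8 TPM in shLAMP5 libraries and 40.8 and 47.8 TPM in shNT libraries. RBBP5, which with ASH2L activates the enzyme, measured 16.9, 14.7, 14.8 and 15.6 TPM in shLAMP5 libraries and 15.8 and 16.8 TPM in shNT libraries. Both overlapped, and ASH2L averaged 95.2 TPM in shLAMP5 and 87.8 TPM in shNT libraries.

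The lysine demethylases, counted with the jumonji protein JMJD1C, had 6 of 7 log2 fold changes above 0, with a median of 0.21. KDM5A (ENSG00000073614), which removes the promoter mark that COMPASS places, measured 24.6, 24.4, 37.2 and 25.7 TPM in shLAMP5 libraries 1 to 4, against 21.8 and 20.6 TPM in shNT libraries. Every shLAMP5 value was above both shNT values, and shLAMP5 3 stood far above the other 3. Its log2 fold change was 0.36 (SE 0.23, 95% interval -0.16 to 0.89, limma adjusted p 0.664), and 0.22 at the lowest when 1 library was left out. KDM6B, a demethylase of the PRC2 mark, measured 6.56, 8.11, 11.4 and 7.62 TPM in shLAMP5 libraries and 6.92 and 5.81 TPM in shNT libraries. KDM5B, a paralogue of KDM5A, measured 27.8, 19.8, 25.3 and 28.5 TPM in shLAMP5 libraries and 16.6 and 24.3 TPM in shNT libraries. Both overlapped, with log2 fold changes of 0.33 and 0.31, and that of KDM5B ran between 0.048 and 0.57 when 1 library was left out. KDM1A (LSD1), a demethylase drug target in this leukaemia, was the exception, at 45.1 ± 11.1 TPM in shLAMP5 and 55.5 ± 7.44 TPM in shNT libraries (SD, n = 4 and 2), with overlapping values and a log2 fold change of -0.32. KDM4A averaged 23.8 TPM in shLAMP5 and 20.4 TPM in shNT libraries, KDM2B 51.1 TPM in shLAMP5 and 47.1 TPM in shNT libraries, and JMJD1C 22.5 TPM in shLAMP5 and 20.8 TPM in shNT libraries, all 3 with overlapping values.

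Among the DNA methyltransferases DNMT1 (ENSG00000130816), which copies methylation onto new strands after replication, measured 31.0, 24.2, 18.8 and 28.5 TPM in shLAMP5 libraries 1 to 4, against 35.8 and 43.1 TPM in shNT libraries. Its groups were apart before and after median scaling, and shLAMP5 3 was lowest, as for EZH2 and PHF19. The log2 fold change was -0.62 (SE 0.24), within a 95% interval of -1.18 to -0.063, and -0.73 without shNT 1 and shLAMP5 2. In limma its Benjamini-Hochberg adjusted p was 0.531, and 0.0333 unadjusted. DNMT3A, a de novo methyltransferase, measured 7.12, 7.20, 10.1 and 8.08 TPM in shLAMP5 libraries and 8.19 and 6.47 TPM in shNT libraries. DNMT3B, the other de novo enzyme, measured 4.30, 3.67, 4.45 and 5.38 TPM in shLAMP5 libraries and 6.67 and 4.84 TPM in shNT libraries. Both overlapped, and the DNMT3B log2 fold change of -0.31 came to -0.037 without shNT 1 and shLAMP5 2.

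TET2 (ENSG00000168769), the main methylcytosine oxidase of blood cells, measured 3.93, 3.67, 4.91 and 4.28 TPM in shLAMP5 libraries 1 to 4, against 2.99 and 3.19 TPM in shNT libraries. TET2 was higher in each shLAMP5 library than in either shNT library, before and after median scaling. The means were 4.20 ± 0.535 TPM in shLAMP5 (SD, n = 4) and 3.09 ± 0.147 TPM in shNT libraries (SD, n = 2), for a log2 fold change of 0.34 (SE 0.20, adjusted p 0.644 in limma). TET3 overlapped, at means of 5.03 TPM in shLAMP5 and 5.58 TPM in shNT libraries. The isocitrate dehydrogenases make the cofactor that TET and jumonji enzymes use. IDH2, the mitochondrial form, measured 115, 67.6, 63.8 and 95.2 TPM in shLAMP5 libraries and 115 and 135 TPM in shNT libraries. Only shLAMP5 1 reached the shNT level, and the log2 fold change was -0.58 (SE 0.27, limma adjusted p 0.578). IDH1, the cytosolic form, measured 149, 56.9, 82.5 and 146 TPM in shLAMP5 libraries and 59.0 and 102 TPM in shNT libraries. It spread widely within each group, and its log2 fold change of 0.37 came to -0.024 without shNT 1.

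**Figure D4:**
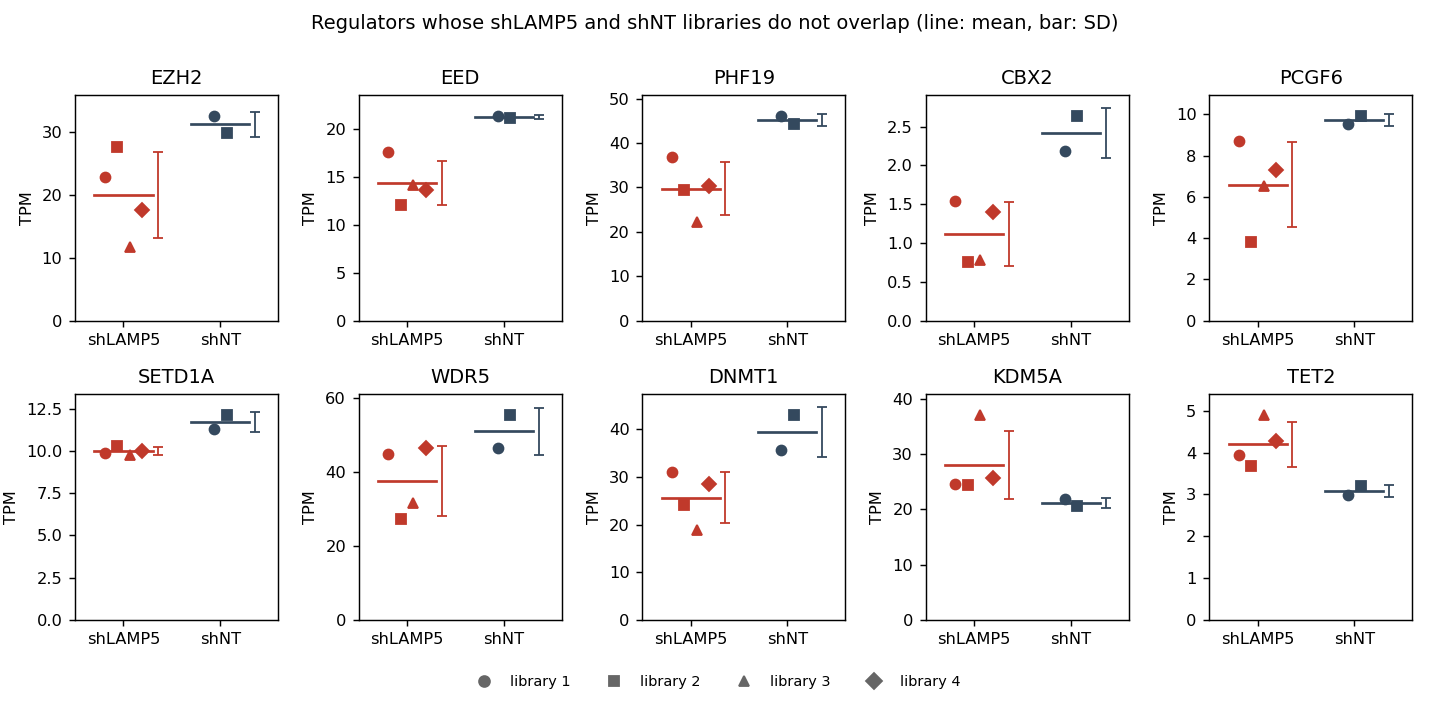
TPM of the 10 tested regulators whose shLAMP5 and shNT libraries do not overlap, with shLAMP5 (4 libraries) left of shNT (2 libraries) in each panel, 1 point per library with a shape for its number, a line at the mean and a bar for the SD. EZH2, EED, PHF19, CBX2, PCGF6, SETD1A, WDR5 and DNMT1 lie lower in shLAMP5 libraries, KDM5A and TET2 higher, and shLAMP5 3 is the lowest point for EZH2, PHF19, SETD1A and DNMT1 and the highest for KDM5A and TET2, while shLAMP5 2 is the lowest for EED, CBX2, PCGF6 and WDR5.

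The deacetylases overlapped between the groups. HDAC2, a class I enzyme of the NuRD, Sin3 and CoREST complexes, measured 183, 90.3, 105 and 165 TPM in shLAMP5 libraries 1 to 4, against 171 and 192 TPM in shNT libraries. HDAC1, its close paralogue, measured 162, 91.5, 122 and 159 TPM in shLAMP5 libraries and 137 and 169 TPM in shNT libraries. For both, shLAMP5 2 was lowest and shLAMP5 1 highest of the shLAMP5 libraries, and the log2 fold changes were -0.47 and -0.22 (limma adjusted p 0.676 and 0.838). SIRT1, an NAD-dependent deacetylase, measured 8.68, 8.23, 10.6 and 7.46 TPM in shLAMP5 libraries and 10.9 and 8.22 TPM in shNT libraries. HDAC3, the enzyme of the NCoR complex, averaged 77.9 TPM in shLAMP5 and 81.7 TPM in shNT libraries, and HDAC7, a class IIa member, 11.3 TPM in shLAMP5 and 11.1 TPM in shNT libraries. Over the 5 genes the median log2 fold change was -0.11.

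Among acetyltransferases and BET readers the log2 fold changes ran from -0.13 to 0.14. CREBBP, a broad transcriptional coactivator, measured 8.43, 8.36, 11.8 and 8.75 TPM in shLAMP5 libraries 1 to 4, against 8.69 and 7.89 TPM in shNT libraries. KAT6A, an acetyltransferase that is itself a fusion partner in some leukaemias, measured 12.6, 9.12, 12.6 and 13.4 TPM in shLAMP5 libraries and 12.5 and 13.6 TPM in shNT libraries. KAT7, the enzyme of the HBO1 complexes, measured 27.1, 22.2, 30.2 and 26.3 TPM in shLAMP5 libraries and 24.6 and 24.9 TPM in shNT libraries. All 3 overlapped, and the median over the 4 acetyltransferases was 0.082. EP300, the paralogue of CREBBP, averaged 13.7 TPM in shLAMP5 and 12.8 TPM in shNT libraries and overlapped too. The BET readers recruit the transcription machinery to acetylated chromatin. BRD2 measured 57.8, 65.9, 66.8 and 52.5 TPM in shLAMP5 libraries and 72.1 and 55.4 TPM in shNT libraries. BRD3 measured 16.4, 11.5, 17.7 and 20.8 TPM in shLAMP5 libraries and 15.5 and 16.3 TPM in shNT libraries. Neither gene separated the groups, and the median of the pair changed sign under median scaling and quantile normalization.

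The other genes of these pathways, 104 by list and 97 of them tested, also gave 0 calls in the limma fit, with a smallest adjusted p of 0.491. At an unadjusted p under 0.05, 3 of the 97 were lower and 4 higher in shLAMP5 libraries, against 5.25% and 3.72% of all genes tested. The counts of log2 fold changes below 0 that follow stand against 50.7% of all genes tested. The smallest p among them was that of KDM3A, a jumonji demethylase, at 27.9, 30.9, 41.9 and 26.0 TPM in shLAMP5 libraries 1 to 4 and 17.4 and 15.3 TPM in shNT libraries, for a log2 fold change of 0.89 (adjusted p 0.491 in limma). Its groups did not overlap, and it was higher in 4 of 4 shLAMP5 libraries than in either shNT library. Of 13 other demethylase genes 6 were below 0, and KDM4B stood at 0.44 while RCOR3 and PHF2 stood at -0.18 and -0.17. Of 20 other polycomb genes 15 were below 0, with a median of -0.074. MBD5, a PR-DUB associated protein, averaged 10.3 TPM in shLAMP5 and 6.23 TPM in shNT libraries (log2 fold change 0.62), and PCGF5, the subunit of a variant PRC1, 3.94 TPM in shLAMP5 and 6.48 TPM in shNT libraries (-0.62). RBBP7, a histone chaperone of PRC2, stood at -0.55, and PCGF3 at 0.088.

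Of 10 other COMPASS genes 7 were below 0, among them PSIP1 (-0.44) and HCFC1 (-0.39), while KDM6A, the demethylase of the enhancer complexes, stood at 0.47 and BOD1L1 at 0.21. Of 12 other DNA methylation genes 7 were below 0. HELLS, a chromatin remodeller needed for methylation, measured 11.2, 5.68, 3.36 and 7.16 TPM in shLAMP5 libraries 1 to 4, against 12.7 and 15.4 TPM in shNT libraries. Its groups did not overlap, with shLAMP5 3 lowest again, and its log2 fold change was -1.03 (limma adjusted p 0.524). UHRF2 stood at -0.37, and the methyl-binding protein MBD1 and the DNMT1 partner DMAP1 at 0.48 and 0.17. Of 25 other deacetylase genes 8 were below 0, with CHD4 and MTA1, both of the NuRD complex, at -0.33 and -0.33 and with SIRT4 and HDAC9 at 0.36 and 0.32. Of 17 other acetyltransferase and bromodomain genes 8 were below 0, among them HAT1 (-0.68) and the SWI/SNF subunit BRD9 (-0.48), while ING4 and KAT8 stood at 0.68 and 0.26.

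Most of the listed genes that these systems are known to silence were low in both groups. Of 25 developmental regulators known as polycomb targets, 3 or 4 reached 1 TPM in each shLAMP5 library and 3 in each shNT library, and 9 were listed at 0 everywhere. WT1, the one of the 4 tested among them whose groups did not overlap, measured 12.8, 7.23, 7.54 and 11.9 TPM in shLAMP5 libraries 1 to 4, against 16.9 and 17.3 TPM in shNT libraries, for a log2 fold change of -0.77 (adjusted p 0.520 in limma). WT1 is also a widely expressed leukaemia antigen. Of 18 germline genes that DNA methylation silences, at most 1 reached 1 TPM in any library, and 17 stayed under 1 TPM in all 6.

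The mean levels of proliferation and of myeloid genes did not overlap between the same groups, and their part in the results above was not tested. The mean of 31 cell cycle genes, on log2(TPM + 1), was 5.20, 4.94, 4.35 and 4.95 in shLAMP5 libraries 1 to 4, against 5.88 and 5.83 in shNT libraries. All 31 had log2 fold changes below 0, beside 50.7% of all genes tested, with a median of -1.02. In limma 30 of them were lower at an unadjusted p under 0.05, beside 5.25% of all genes tested, while 0 passed after adjustment. The mean of the monocyte and macrophage genes was 6.59, 5.86, 7.20 and 6.67 in shLAMP5 libraries, against 5.51 and 5.49 in shNT libraries. Their log2 fold changes were above 0 for 12 of 12 tested, with a median of 1.12. At an unadjusted p under 0.05 in limma 6 were higher, beside 3.72% of all genes tested. Library shLAMP5 3 was lowest for the cell cycle list and highest for the myeloid one. In unscaled TPM it was also lowest for EZH2, PHF19, SETD1A and DNMT1, while shLAMP5 2 was lowest for EED, CBX2, PCGF6 and WDR5. After median scaling shLAMP5 3 was lowest for EZH2, PHF19, DNMT1, CBX2 and WDR5. PCGF6 was then lowest in shLAMP5 2, EED in shLAMP5 4 and SETD1A in shLAMP5 1. In these bulk libraries fewer cells that express a gene and less RNA per cell cannot be told apart.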

How the data were processed

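RNA from 6 MOLM-13 libraries was sequenced by the authors after transduction with lentiviral hairpins, from total RNA with a TruSeq kit, per the labels' protocols. Groups were taken from the titles, 4 shLAMP5 and 2 shNT. The authors deposited 1 table of TPM values for 39771 Ensembl identifiers. Its header names no unit, and TPM was taken because its columns hold fractional values that total 897026 to 912565. For how the authors made the TPM values, the submitters' processing notes name kallisto and hg19, but the version, transcript set and gene summary were not given in the sources used here. Because read numbers cannot be had from TPM, depth is unknown, and neither counting intervals nor count tests were made.

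A symbol was found for 35558 identifiers. From the table, limma 3.58.1 (R 4.3.3) with a mean-variance trend was fitted on log2(TPM + 1) over the 13072 genes that reached 1 TPM in 2 or more libraries. Group was its only factor, and p-values were adjusted over all of them (Benjamini-Hochberg, threshold 0.05). The script was tested on simulated data, where it called 21% of 100 genes changed by 1 on the log2 scale. It called 79% of 100 genes changed by 2, with 8 false calls. LAMP5 and the ratio of EZH2 to EZH1 had an exact permutation test over 15 splits. Promoters come from RefSeq (GRCh38.p14). The members, the gene lists and the motifs were chosen with earlier results of these data known. Every library is given for regulators among the 3 smallest p in their complex or with groups that do not overlap, and, of each other pathway list, the 2 genes with the smallest p in each direction are named; the rest are given by mean, range or count. Tables were made in pandas 2.3.3 and figures in matplotlib 3.10.9, under Python 3.11.15. Alternatives were other pseudocounts, filters, scalings, library weights, the replicate number as a block, and leaving out libraries.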

Additional observations from a re-analysis of the deposited data

Results flagged for a closer look

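Within the 4 shLAMP5 libraries, 6 of 52 genes examined (the tested regulators and LAMP5) had 1 library whose gap to its nearest neighbour, as a share of the group's range on log2(TPM + 1), passed Dixon's 95% critical value for 4 samples. Chance passes about 1 group in 20. The share was 0.876 for KDM5A, 0.854 for JMJD1C and 0.871 for CREBBP, in each of which shLAMP5 3 was high, at 37.2, 30.0 and 11.8 TPM. It was 0.876 for JARID2 and 0.851 for KAT6A, in which shLAMP5 2 was low, at 16.4 and 9.12 TPM. It was 0.834 for HDAC7, in which shLAMP5 1 was low, at 9.24 TPM.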

How the results depend on the processing

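The table holds 6 libraries of unknown depth, 2 of them controls, so the intervals are wide. Under the alternatives 20 log2 fold changes of named genes changed sign, and most of the named genes never did. No setting called a regulator. Of all genes tested 0 were called, but 14 without a filter on low values, 16 with a replicate block and 210 with library weights, where LAMP5 passed the threshold at -1.40. Regulators separated upward numbered 8 after median scaling, beside 12.0% of all genes tested. They numbered 6 after quantile normalization and 1 at a minimum of 10 TPM, where the share of all genes was not taken. Without shNT 1 and shLAMP5 2 together, 3 libraries stood against 1, so only log2 fold changes are given for that setting. Regulators lower at an unadjusted p under 0.05 in limma numbered 0 with the replicate block, and those higher numbered 5 with library weights. At a minimum of 10 TPM the medians were -0.39 for PRC2, -0.12 for COMPASS methyltransferases and -0.62 for DNA methyltransferases, of which fewer were tested. The DNA methyltransferase median was also -0.18 with library weights, -0.43 with the replicate block and -0.037 without the pair of libraries, and in that last setting the medians were 0.15 for COMPASS methyltransferases and 0.12 for BET readers. The cause of these shifts was not tested.

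With 1 library left out in turn, regulators lower at an unadjusted p under 0.05 numbered 0 to 5 (0 without either shNT library, 2 without shLAMP5 3 or 4), those separated downward 8 to 15 and upward 2 to 12, with 15 downward without shNT 1 and 12 upward without shLAMP5 2. The medians ran from -0.40 to -0.13 for PRC2, -0.070 to 0.12 for COMPASS methyltransferases and -0.49 to -0.11 for DNA methyltransferases. Sign changes among single genes gave ranges of -0.12 to 0.068 for ASXL2, -0.0097 to 0.17 for SETD1B, -0.079 to 0.19 for BRD3, -0.25 to 0.13 for BRD2, -0.024 to 0.76 for IDH1, -0.29 to 0.069 for SIRT1, -0.34 to 0.012 for ASXL1 and -0.022 to 0.28 for DNMT3A. With library weights ASXL2 came to 0.077 and HDAC1 to 0.012. With the replicate block SETD1B came to -0.071, DNMT3A to -0.022, KAT7 to -0.0095 and BRD3 to -0.19. Without the pair of libraries ASXL2 came to 0.15, SIRT1 to 0.092 and BRD2 to 0.085. The replicate numbers were not taken as pairs, since only numbers 1 and 2 occur in both groups and the deviations of same-numbered libraries correlated at -0.52 and -0.47.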
